A study of Homo sapiens with 18 samples.

Results

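The bone morphogenetic protein (BMP) pathway was followed here through 10 genes, the receptors BMPR1A, BMPR2 and ACVR1, the signal carriers SMAD1, SMAD4 and SMAD5, the inhibitory SMAD7, and the targets ID1, ID2 and ID3. They were measured in SH-SY5Y, a line of human neuroblastoma cells whose shape becomes neuron-like in retinoic acid. The genes were chosen by name, and every probe set that the array annotation gives to one of them alone was taken. BMPR1A was not analysed here. The other 9 genes had 25 probe sets out of 54675 on the array, and 20 of them passed a signal filter at each time, of 22455 probe sets that passed at 6 h and 24307 at 24 h. A probe set passed where its 9 arrays at that time averaged more than log2(40). The 5 probe sets below it, at both times, were 1556075_at of BMPR2, 208015_at of SMAD1, and 1565702_at, 1565703_at and 202526_at of SMAD4. The choice of genes rested on these data, since BMPR2 and SMAD5 had already been seen to differ at 5 μM and 6 h.

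All cells had been kept in 10 μM retinoic acid for 7 days and then without it for 24 h. They received 0, 1 or 5 μM cocaine for 30 min and were harvested at 6 h or 24 h, and the study asked which genes change after such a short exposure. Each of the 6 combinations of dose and time had 3 arrays, labelled as biological replicates 1, 2 and 3, and each array held RNA pooled from 3 dishes of this single cell line. All values are log2 signals, and since the authors normalized the arrays of each time separately, levels are compared within a time only. In bulk RNA, fewer cells with a transcript and less of it in each cell cannot be told apart. Markers of the sympathetic neuroblastoma lineage were above the filter for 6 of 7 measured genes at both times, while TH, the enzyme that makes the dopamine precursor, was at 3.35 to 4.0 on all 18 arrays and below it. Of the mesenchymal markers 5 of 8 and of the measured Schwann cell markers 1 of 2 were above the filter. The summed signal of each of these lists overlapped between 0 and 5 μM at both times.

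In BMP signalling a ligand joins type II receptors, such as BMPR2, with type I receptors, such as BMPR1A and ACVR1. The type I receptor phosphorylates SMAD1 and SMAD5, which bind SMAD4, enter the nucleus and switch on targets. ID1, ID2 and ID3 are among the fastest of these, and their proteins tie up the E proteins that basic helix-loop-helix factors need as partners. SMAD7 and its relative SMAD6 are targets as well and feed back on the receptors. In the embryo BMPs from the dorsal aorta turn neural crest cells into sympathetic neurons, the lineage from which neuroblastoma arises.

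The promoters of BMPR2, SMAD5 and SMAD7 are shown because the first 2 genes had probe sets that were higher at 5 μM and 6 h, and because SMAD7 varied more with the replicate number than the ID genes did. Capitals mark GGCGCC, a GC-rich element that SMAD1 and SMAD5 can bind, and CAGAC or its reverse complement GTCTG, which hold the SMAD box. The sequences are from RefSeq on GRCh38.p14, 5′ to 3′ on the gene's strand, from 250 bases before the transcript start to 50 after it.
BMPR2, chr2:202376077-202376376, plus strand: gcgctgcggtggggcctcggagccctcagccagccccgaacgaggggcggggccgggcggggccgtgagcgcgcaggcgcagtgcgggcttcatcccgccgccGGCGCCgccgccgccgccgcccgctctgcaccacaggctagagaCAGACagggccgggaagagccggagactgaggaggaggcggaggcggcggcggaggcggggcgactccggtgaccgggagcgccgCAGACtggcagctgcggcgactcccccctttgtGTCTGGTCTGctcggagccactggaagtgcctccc
SMAD5, chr5:136132595-136132894, plus strand: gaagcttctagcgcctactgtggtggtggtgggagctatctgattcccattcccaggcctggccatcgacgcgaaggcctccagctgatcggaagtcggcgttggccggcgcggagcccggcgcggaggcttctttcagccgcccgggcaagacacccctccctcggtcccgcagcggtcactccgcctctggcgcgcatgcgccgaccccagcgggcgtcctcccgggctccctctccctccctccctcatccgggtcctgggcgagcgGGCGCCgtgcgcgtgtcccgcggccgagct
SMAD7, chr18:48950916-48951215, minus strand: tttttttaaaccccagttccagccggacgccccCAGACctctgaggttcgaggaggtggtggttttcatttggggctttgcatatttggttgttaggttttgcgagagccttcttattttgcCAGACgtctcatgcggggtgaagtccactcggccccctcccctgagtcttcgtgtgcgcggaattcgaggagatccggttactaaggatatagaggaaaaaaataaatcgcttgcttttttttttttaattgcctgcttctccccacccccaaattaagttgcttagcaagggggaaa
The BMPR2 window held 1 GGCGCC and 4 copies of CAGAC counted on both strands, the SMAD5 window 1 GGCGCC and none of the other, and the SMAD7 window 2 copies of CAGAC and no GGCGCC. The GC content of the windows was 76.7% for BMPR2, 72% for SMAD5 and 48.3% for SMAD7. The marked letters did not overlap each other. Over all 35116 windows of 300 bases in the table, 19.2% held GGCGCC and 45.3% held CAGAC on either strand. All 10 genes had an entry, 18 in all because some have several starts. GGCGCC was found in 6 of these 18 windows, for 5 of the genes (BMPR2, SMAD5, SMAD1, SMAD4 and ACVR1). CAGAC was found in 7 of the 18, for 5 genes (BMPR2, SMAD7, SMAD1, ID3 and ACVR1). SMAD7 has other windows than the one shown. That from 48949284 held 1 CAGAC and that from 48942758 none. The windows of ID1, ID2 and BMPR1A held neither. These are matches of letters and not measured binding.

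At 6 h the receptor BMPR2 and the signal carrier SMAD5 were higher after 5 μM cocaine by some of their probe sets and not by others. Probe set 205188_s_at of SMAD5 was higher by 0.82 (SE 0.18, n = 3 per dose), a 1.77-fold difference, and 205187_at by 0.63 (SE 0.113). Probe sets 210214_s_at and 209920_at of BMPR2 were higher by 0.49 (SE 0.11) and 0.45 (SE 0.0977). These 4 of the 20 probe sets were called in limma at an adjusted p under 0.10, all higher, against 2.98% of all probe sets tested in that comparison and 1.57% called higher. The choice of the genes used this comparison, so the count is a description and nothing is read from it. The member nearest the threshold on the inside was BMPR2 210214_s_at, and on the outside ID1, higher by 0.39 (SE 0.118).

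For SMAD5 205187_at the 3 arrays without cocaine read 6.80, 6.45 and 6.57, those at 1 μM 6.96, 7.09 and 6.92, and those at 5 μM 7.42, 7.21 and 7.07. The doses did not overlap with the untreated arrays. SMAD5 205188_s_at read 6.94, 6.20 and 6.50 without cocaine, 7.04, 7.02 and 7.02 at 1 μM, and 7.65, 7.26 and 7.20 at 5 μM. Here too every treated array was above every untreated one. The SMAD5 probe sets with the strongest signal did not share this. Probe set 225223_at read 10.32, 10.35 and 10.31 without cocaine and 10.30, 10.24 and 10.21 at 5 μM, a difference of -0.07 (SE 0.0588), and 225219_at differed by -0.13 (SE 0.0716). The fifth, 235451_at, differed by 0.29 (SE 0.107), with its lowest 5 μM array at 8.10 just under the highest untreated one at 8.11.

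BMPR2, the type II receptor, split in the same manner. Probe set 209920_at read 6.55, 6.40 and 6.62 without cocaine, 6.73, 6.87 and 7.06 at 1 μM, and 6.88, 6.95 and 7.09 at 5 μM. Probe set 210214_s_at read 5.51, 5.60 and 5.63, then 5.71, 5.97 and 6.12, then 5.96, 6.01 and 6.22 in the same order. For both, every treated array was above every untreated one, and the 2 doses of cocaine overlapped. Probe set 238516_at was apart from the untreated arrays at 5 μM only, with 5.75, 5.62 and 5.16 without cocaine, 5.53, 5.61 and 5.49 at 1 μM, and 5.82, 6.04 and 5.98 at 5 μM. The untreated arrays of 210214_s_at were near the filter, which is 5.32 in log2. The lowest untreated array of 238516_at was under it. The strongest BMPR2 probe set, 225144_at, read 9.68, 9.64 and 9.70 without cocaine and 9.68, 9.92 and 9.82 at 5 μM, a difference of 0.14 (SE 0.0852), and 231873_at differed by -0.10 (SE 0.113).

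**Figure D1:**
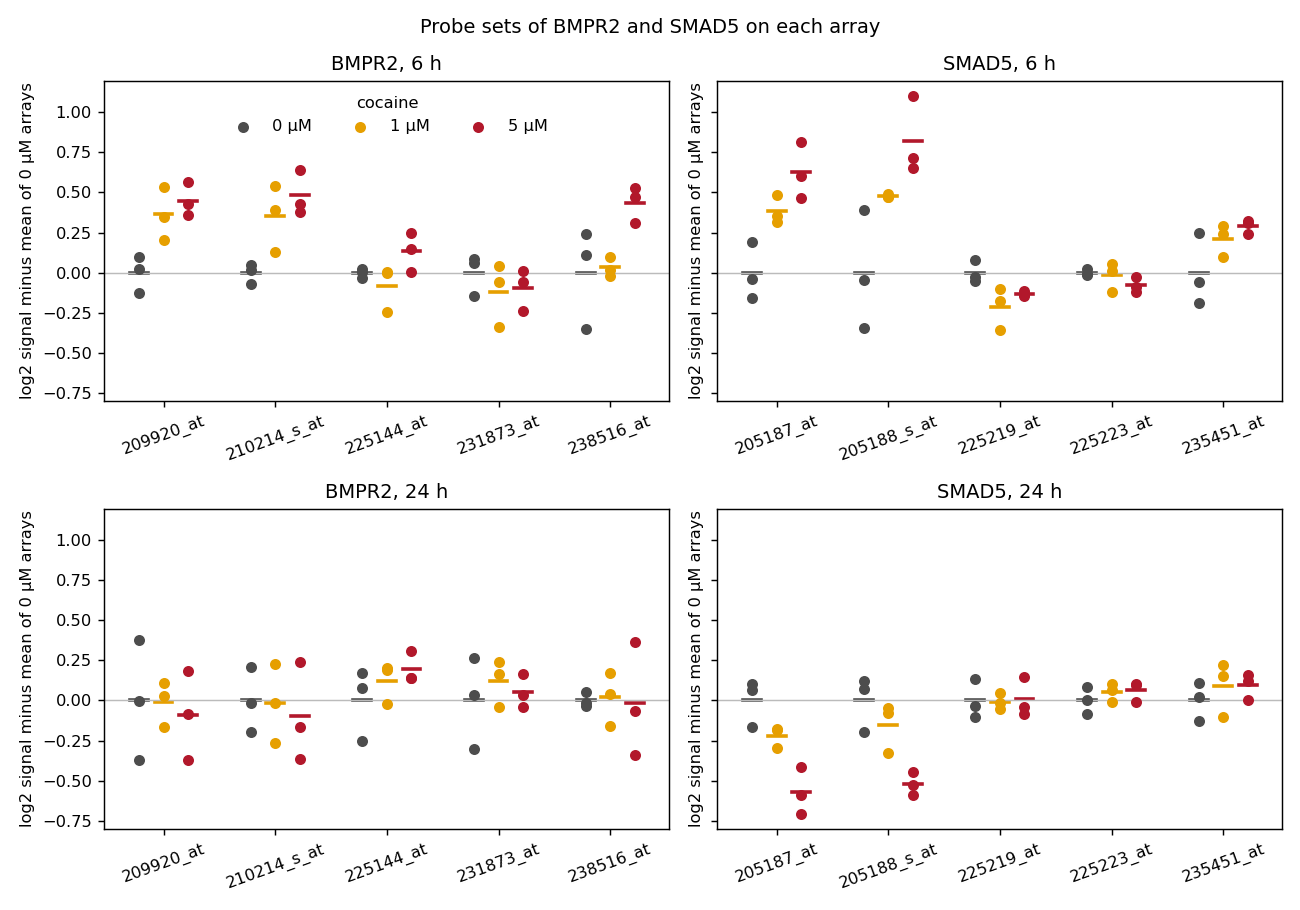
Each point is 1 array, plotted as its log2 signal minus the mean of the 3 arrays without cocaine at that time, for the 5 tested probe sets of BMPR2 (left) and SMAD5 (right) at 6 h (top) and 24 h (bottom), and short lines are group means. SMAD5 205187_at and 205188_s_at lie 0.63 and 0.82 above the untreated mean at 5 μM and 6 h and 0.57 and 0.52 below it at 24 h, while the 5 μM means of SMAD5 225219_at and 225223_at differ from it by -0.13 and -0.07 at 6 h and by 0.00 and 0.06 at 24 h.

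Probe sets of a gene can be compared within an array, where a scale factor common to the array drops out. Against the strongest SMAD5 probe set at 6 h, 205187_at gained 0.70 and 205188_s_at gained 0.90 between 0 and 5 μM, and 235451_at gained 0.36. Against the strongest BMPR2 probe set, 209920_at gained 0.32, 210214_s_at gained 0.35 and 238516_at gained 0.30, and 231873_at changed by -0.23. These values depended on the reference. Against the mean of the gene's other probe sets, 205188_s_at gained 0.64 and 205187_at 0.40, while 235451_at differed by -0.02 and its doses overlapped. In BMPR2 210214_s_at then gained 0.25, 209920_at and 238516_at differed by 0.21 and 0.20 with overlapping doses, and 231873_at differed by -0.47.

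Between 5 and 0 μM at 6 h the other genes differed by less than the 4 called probe sets did. ID1, an inhibitor of basic helix-loop-helix factors, read 10.88, 10.81 and 10.47 without cocaine, 11.22, 11.45 and 11.24 at 1 μM, and 10.98, 11.21 and 11.12 at 5 μM. The 1 μM arrays were the highest, at 0.58 (SE 0.118) above the untreated ones, or 1.5-fold, and all treated arrays were above all untreated ones. ID3 went the other way, with 10.57, 11.08 and 10.75 without cocaine and 10.46, 10.66 and 10.45 at 5 μM, and its groups overlapped (difference -0.28, SE 0.135). Both ID2 probe sets differed by -0.02 between 5 and 0 μM. SMAD4, the shared partner of the signal-carrying SMADs, read 10.12, 9.88 and 9.88 by 202527_s_at without cocaine and 9.56, 9.74 and 9.67 at 1 μM, a difference of -0.31 (SE 0.0843), and 9.91, 10.08 and 10.01 at 5 μM. The type I receptor ACVR1 differed by -0.01 (SE 0.101) and the SMAD1 probe sets by 0.06 (SE 0.319) and -0.06 (SE 0.311) between 5 and 0 μM.

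Among the 20 probe sets at 6 h, 6 had all 5 μM arrays above the untreated ones and 2 had all below, against 21.2% of all probe sets without overlap in either direction. The median difference over the 20 was 0.01, against -0.016 over all probe sets. Arrays with the same replicate number deviated together, and with that number as a block 9 of 20 were called at 5 μM, against 18.6% of all probe sets. The 7 higher ones were BMPR2 209920_at, 210214_s_at and 238516_at, SMAD5 205187_at, 205188_s_at and 235451_at, and ID1, and the 2 lower ones were SMAD7 and ID3. Between 1 and 0 μM none of the 20 was called without the block, against 0% of all. By limma 7 had an unadjusted p under 0.05, as did 3222 of all 22455 probe sets. With the block 6 were called, against 12.5% of all probe sets. Of these BMPR2 209920_at and 210214_s_at, SMAD5 205187_at and 205188_s_at, and ID1 were higher, and SMAD4 202527_s_at was lower. Between 5 and 1 μM none was called, with or without the block, against 0% of all. Here 3 had an unadjusted p under 0.05, as did 1448 of all 22455 probe sets. The 3 comparisons at 6 h share arrays and are not independent of each other.

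The 4 calls at 5 μM and 6 h depended on single arrays. Leaving out 0 μM replicate 2 or 3, or any of the 3 arrays at 5 μM, left 0 called, leaving out 1 μM replicate 2 left 1, and leaving out 0 μM replicate 1 gave 7. The calls over all probe sets in these fits are not given here, so the counts do not single out the members. The untreated arrays differed among themselves in CYP26A1, the retinoic acid-degrading enzyme that retinoic acid induces, which read 5.01 in replicate 1, 10.69 in replicate 2 and 10.99 in replicate 3, and 4.95 to 5.61 on the 6 treated arrays. Without replicates 2 and 3, against the single array that remained, the 5 μM differences were 0.44 for SMAD5 205187_at, 0.43 for 205188_s_at, 0.43 for BMPR2 209920_at and 0.55 for 210214_s_at. In that fit, where a lone untreated array is assumed to vary like the treated ones, 0 of all 22455 probe sets were called, members included, so it says nothing about the members in particular. A second measure also moved with dose. The 3′ minus 5′ difference of the ACTB control probe sets, which grows when labelled RNA reaches less far from the 3′ end, was 0.55, 1.12 and 0.89 without cocaine, 0.72, 0.64 and 0.60 at 1 μM, and 0.49, 0.52 and 0.54 at 5 μM. The 5 μM arrays were all below the untreated ones (difference -0.34, 2-sided exact permutation p = 0.1, the smallest that 3 against 3 allows). The same difference for GAPDH was -0.02 (exact permutation p = 0.3). The part of CYP26A1 or the ACTB measure in the member differences was not tested.

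At 24 h no member passed the test at any dose. None of the 20 was called between 5 and 0 μM (0.0123% of all probe sets), between 1 and 0 μM (0%) or between 5 and 1 μM (0.00823%), with or without the replicate block. By limma 2, 1 and 2 of them had an unadjusted p under 0.05 in these comparisons, in the same order. Of all 24307 probe sets 1751, 819 and 1488 did. The lowest adjusted p were those of SMAD5 205187_at and 205188_s_at between 5 and 0 μM, both 0.379 without and 0.14 with the block, and between 0.14 and 0.945 over all alternatives.

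SMAD5 205187_at read 7.86, 7.82 and 7.59 without cocaine, 7.57, 7.58 and 7.46 at 1 μM, and 7.05, 7.34 and 7.17 at 5 μM. Probe set 205188_s_at read 7.70, 7.75 and 7.43 without cocaine, 7.58, 7.55 and 7.30 at 1 μM, and 7.04, 7.18 and 7.10 at 5 μM. In both the 5 μM arrays lay below all others, at -0.57 (SE 0.0955) and -0.52 (SE 0.104) from the untreated ones, the opposite side from 6 h. They were the only 2 of the 20 members without overlap between 5 and 0 μM at 24 h, where 10.4% of all probe sets had none. The other 3 SMAD5 probe sets differed by 0.00 (SE 0.0842) for 225219_at, 0.06 (SE 0.0643) for 225223_at and 0.10 (SE 0.0988) for 235451_at. Within the arrays, 205187_at lost 0.58 and 205188_s_at lost 0.53 against the strongest SMAD5 probe set, each with a 2-sided exact permutation p = 0.1. The ACTB difference also had the opposite sign at this time, with 0.61, 0.49 and 0.65 without cocaine and 0.93, 0.69 and 1.03 at 5 μM (difference 0.30, exact permutation p = 0.1), and its part in the SMAD5 values was not tested. The same difference for GAPDH was 0.02 (exact permutation p = 0.4).

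**Figure D2:**
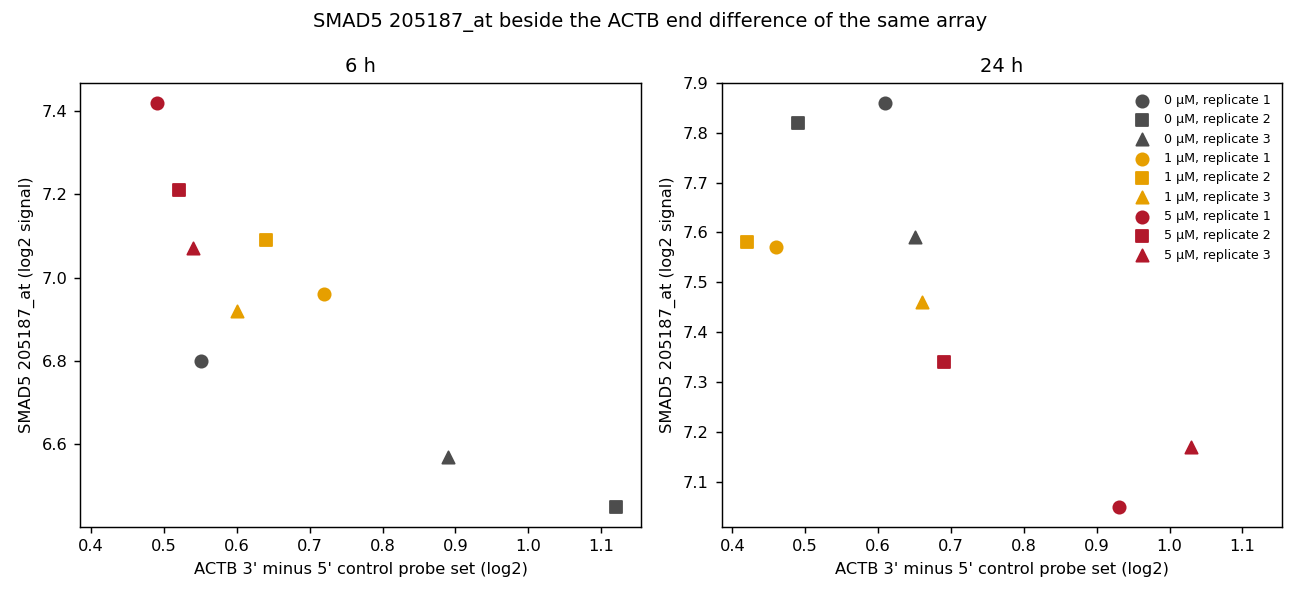
Each point is 1 array, with the ACTB 3′ minus 5′ control difference (log2) on the horizontal axis and the log2 signal of SMAD5 205187_at on the vertical axis, at 6 h (left) and 24 h (right), with colours for cocaine dose and shapes for replicate number. At 6 h the untreated replicates 2 and 3 have the highest ACTB differences (1.12 and 0.89) and the lowest SMAD5 signals (6.45 and 6.57), and at 24 h the arrays with the lowest SMAD5 signals (7.05 and 7.17) are 5 μM replicates 1 and 3 with ACTB differences of 0.93 and 1.03. At 24 h 5 μM replicate 2 has a SMAD5 signal of 7.34 and an ACTB difference of 0.69, near untreated replicate 3 at 0.65.

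For BMPR2 at 24 h the doses overlapped on every probe set. Probe set 209920_at read 6.71, 7.08 and 7.46 without cocaine, 7.19, 6.92 and 7.11 at 1 μM, and 7.00, 6.71 and 7.27 at 5 μM, so that the untreated arrays alone spanned more than the treated ones did. The differences between 5 and 0 μM were -0.09 (SE 0.196) for 209920_at and -0.10 (SE 0.176) for 210214_s_at. The strongest probe set, 225144_at, was at 0.20 (SE 0.116), the largest positive difference among the members, with an adjusted p of 0.764 in limma. ID1 read 10.99, 10.65 and 11.28 without cocaine, 11.00, 10.83 and 11.39 at 1 μM, and 10.94, 10.79 and 11.30 at 5 μM, with every dose overlapping the others. It differed by 0.04 (SE 0.201) between 5 and 0 μM, ID3 by -0.07 (SE 0.121), SMAD7 by 0.18 (SE 0.455) and ACVR1 by 0.06 (SE 0.0979). SMAD4 202527_s_at, the SMAD4 probe set with the larger difference at this time, read 10.19, 10.08 and 10.11 without cocaine and 9.75, 10.19 and 9.94 at 5 μM, and its groups overlapped (difference -0.16, SE 0.103). The median over the 20 members was 0.01, against 0.00 over all probe sets. The standard errors ran from 0.0643 for SMAD5 225223_at to 0.455 for SMAD7, whose arrays of a dose differed by replicate number.

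**Figure D3:**
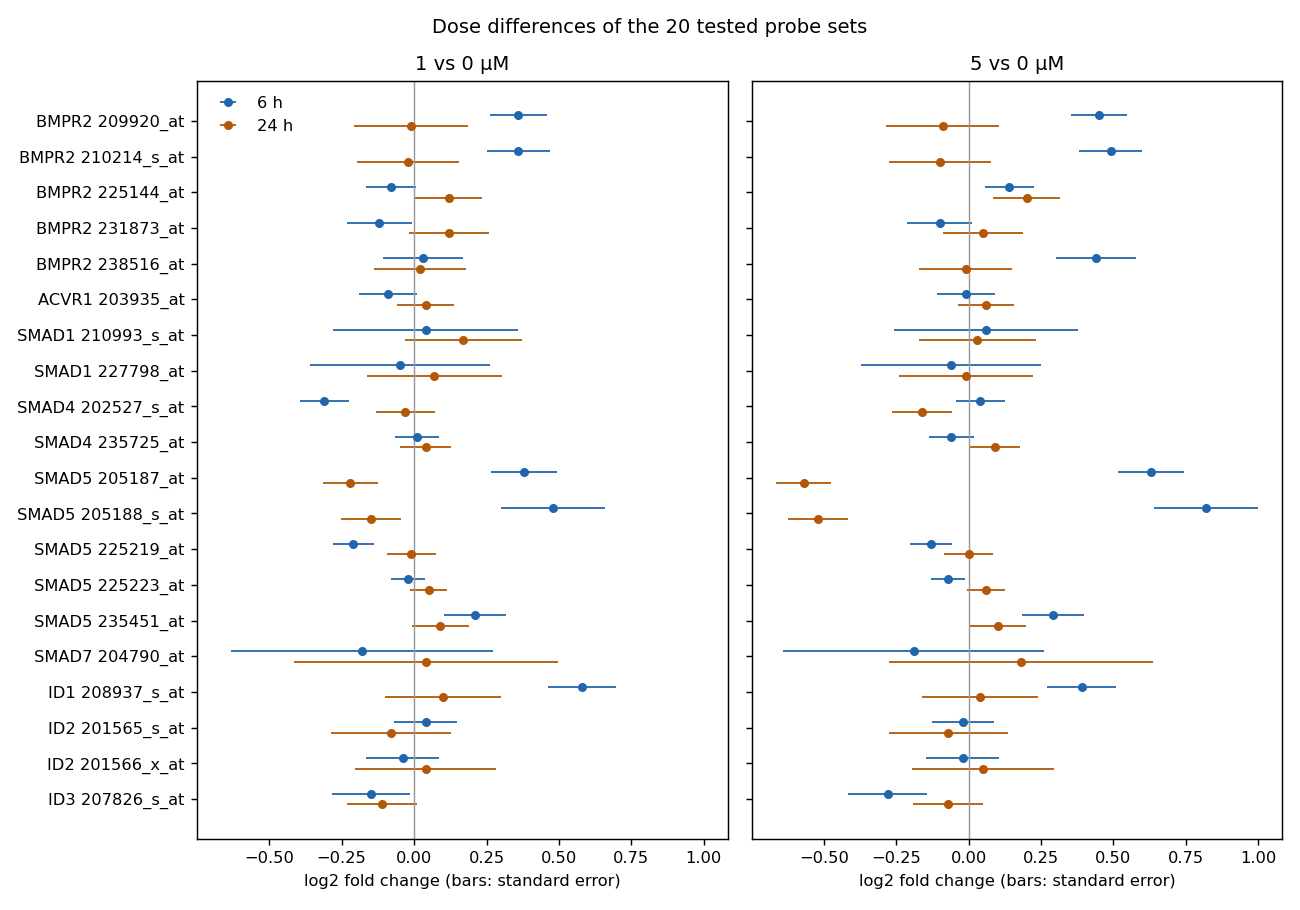
Log2 fold changes of the 20 tested probe sets between 1 and 0 μM (left) and 5 and 0 μM (right), at 6 h (blue) and 24 h (orange), with 3 arrays per dose and bars of 1 standard error from limma. The 4 called probe sets are at 0.45 to 0.82 in the right panel at 6 h, and SMAD5 205187_at and 205188_s_at are the lowest points at 24 h, at -0.57 and -0.52.

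The inhibitory SMAD7, SMAD1 and ID2 varied more with the replicate number than with cocaine at both times, and ID1 and ID3 did so at 24 h. At 6 h dose took the larger share for ID1 (77.1%, against 10.1% for the number), and ID3 had 50.7% on the number and 35.1% on dose. With dose and replicate number in one limma model, a test chosen after the values had been seen, the number was called for 9 of the 20 members at 6 h (27% of all probe sets) and for 12 of 20 at 24 h (25.2%). It took a larger share of the sum of squares than dose in 9 members at 6 h and in 17 at 24 h. Its median share over the members was 30.3% at 6 h, against 35.5% over all probe sets, and 71.7% at 24 h, against 41%. The labels do not say what the number stands for, nor whether replicate 1 at 6 h shares anything with replicate 1 at 24 h.

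SMAD7 read 8.29 in replicate 1, 9.39 in replicate 2 and 9.23 in replicate 3 without cocaine at 6 h, 7.98, 9.23 and 9.15 at 1 μM, and 7.99, 9.16 and 9.18 at 5 μM. Replicate 1 was thus lowest at every dose, and the number took 96.5% of the sum of squares (adjusted p = 0.000129, limma). At 24 h replicate 3 stood apart instead, with 8.36, 8.23 and 9.42 without cocaine, 8.44, 8.29 and 9.39 at 1 μM, and 8.44, 8.41 and 9.72 at 5 μM (96.9%, adjusted p = 0.000168). The cocaine doses differed by less than the replicates at both times.

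At 24 h the ID genes were also highest in replicate 3, while at 6 h ID2 was lowest in replicate 1, ID3 was equally low in replicates 1 and 3, and ID1 was lowest in replicate 3. At 24 h ID1 had means of 10.98, 10.75 and 11.32 over replicates 1, 2 and 3 (94.9% of the sum of squares, adjusted p = 0.00161, limma), and replicate 3 was the highest at each dose. ID2 201565_s_at had 12.84, 12.76 and 13.30 (96.4%, adjusted p = 0.00122), and ID3 had 10.44, 10.39 and 10.67 (72.9%, adjusted p = 0.0495). At 6 h ID2 201565_s_at had means of 12.66, 12.91 and 12.88, with replicate 1 the lowest as for SMAD7 (85.1%, adjusted p = 0.0289). ID3 had 10.56, 10.85 and 10.56, with replicate 2 the highest (50.7%, adjusted p = 0.054). ID1 had 11.03, 11.16 and 10.94 at 6 h and was not called for the number (adjusted p = 0.299).

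SMAD1, which carries the signal beside SMAD5, had another order. By 227798_at it read 9.23, 8.79 and 8.26 in replicates 1, 2 and 3 without cocaine at 6 h, 9.10, 8.71 and 8.32 at 1 μM, and 9.21, 8.66 and 8.26 at 5 μM. Replicate 1 was the highest and replicate 3 the lowest at each dose, and the number took 98.3% of the sum of squares (adjusted p = 0.000428, limma). At 24 h the means were 9.51, 9.14 and 8.92 (76.1%, adjusted p = 0.0415). The second SMAD1 probe set, 210993_s_at, had 8.42, 7.90 and 7.51 at 6 h and 8.55, 8.33 and 7.98 at 24 h. SMAD5 205187_at and 205188_s_at were not called for the number at either time (adjusted p of 0.257 and 0.122 at 6 h, 0.279 and 0.145 at 24 h).

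**Figure D4:**
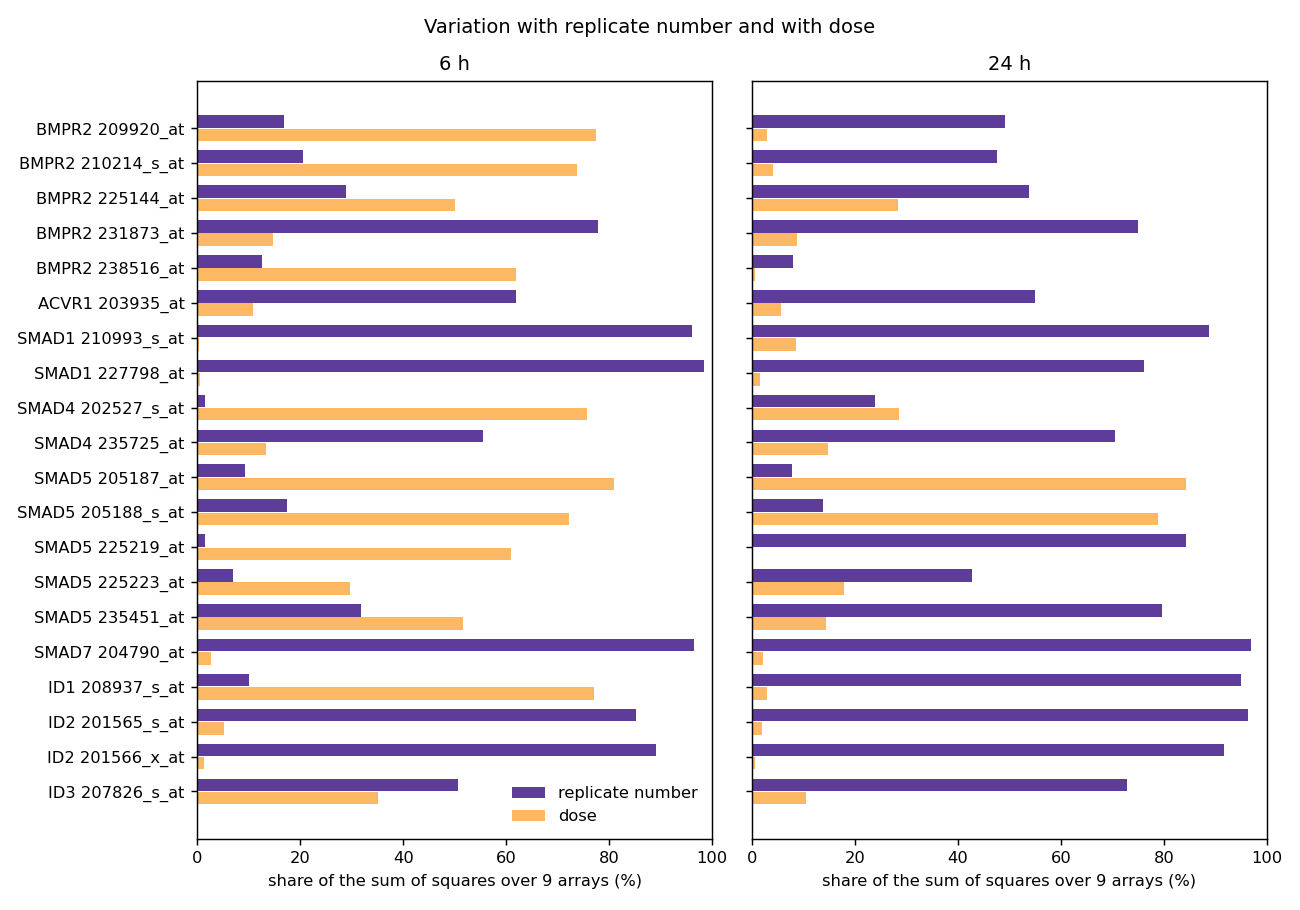
Share of the sum of squares over the 9 arrays of a time taken by replicate number (purple) and by cocaine dose (orange) for each of the 20 tested probe sets, at 6 h (left) and 24 h (right). SMAD7 has 96.5% and 96.9% on the replicate number, while SMAD5 205187_at has 80.9% and 84.3% on dose.

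At 6 h 7 of the 20 members were called with replicate 1 lowest (35%), against 12% of all tested probe sets, and at 24 h 8 of 20 were called with replicate 3 highest (40%), against 9.12%. Taken over called probe sets only, these were 7 of 9 members, against 44.4% of all, and 8 of 12, against 36.1%. At 6 h these were BMPR2 209920_at (6.72, against 6.74 and 6.92), 210214_s_at and 231873_at, both ID2 probe sets, SMAD7 and ID3. ID3 counts although its means in replicates 1 and 3 were equal as rounded (10.56). At 24 h they were BMPR2 225144_at and 231873_at, SMAD4 235725_at, SMAD7, ID1, both ID2 probe sets and ID3. Several are thus probe sets of 1 gene. The order was that of SMAD7, which is counted too, and was chosen after the values had been seen. Other BMP targets and inhibitors outside the 10 genes were then looked at, and those named next were chosen after their values were seen. SMAD6, the second inhibitory SMAD, read 7.12, 8.40 and 8.35 in replicates 1, 2 and 3 without cocaine at 6 h, and 7.52, 7.48 and 8.70 at 24 h. It had 97.1% and 98.8% of the sum of squares on the number (adjusted p of 6.99e-05 and 0.000159). BAMBI, a decoy receptor that BMPs induce, had means of 10.30, 10.69 and 10.74 at 6 h and 10.59, 10.68 and 11.09 at 24 h. MSX2, a homeobox target of BMPs, had 9.21, 9.80 and 9.75 by 210319_x_at at 6 h and 9.62, 9.42 and 10.32 at 24 h. HEY1, a target of Notch and of BMPs, was highest in replicate 1 and lowest in replicate 3 at both times. By 44783_s_at it had 11.27, 11.11 and 10.62 at 6 h and 11.34, 11.20 and 10.56 at 24 h. ID4, the fourth ID gene, had another order, with 9.44, 8.86 and 8.95 by 209291_at at 6 h (adjusted p = 0.453) and 9.78, 9.17 and 9.48 at 24 h (adjusted p = 0.0717). Over all pathway genes outside the members, 36.7% of 139 tested probe sets were called for the number at 6 h, against 27% of all, and 33.6% of 149 at 24 h, against 25.2%. CYP26A1 on the untreated arrays was low in replicate 1 at 6 h (5.01, against 10.69 and 10.99) and high in replicate 3 at 24 h (9.55, against 5.40 and 6.04). On the treated arrays at 6 h it read 5.15, 4.95 and 5.61 in replicates 1, 2 and 3 at 1 μM. At 5 μM it read 5.20, 5.39 and 5.53, so replicate 1 was lowest at 5 μM and not at 1 μM. The treated arrays at 24 h were at 4.92 to 6.31. Replicate 3 was again the highest there at 1 μM (5.70, against 5.33 and 5.12) and at 5 μM (6.31, against 4.92 and 4.96). Several of these treated values were under log2(40). Summed neuroblastoma marker signals were 14.24 to 14.32 in replicate 3 at 24 h and 14.11 to 14.21 in the others, and at 6 h they were 14.05 to 14.14 over all replicates. Of the neuroblastoma marker probe sets 4 of 8 at 6 h and 5 of 8 at 24 h were called for the number, 2 and 3 of them in the order of SMAD7. Of the mesenchymal ones 8 of 12 and 9 of 15 were called, but 1 at each time had that order. It was SNAI2, a zinc finger factor of neural crest and mesenchymal cells, with means of 9.08, 9.49 and 9.56 at 6 h and 9.41, 9.36 and 10.09 at 24 h. COL1A1, a fibrillar collagen, was lowest in replicate 3 instead, with 8.45, 8.41 and 7.10 by 1556499_s_at at 6 h and 9.17, 9.08 and 8.00 at 24 h. Summed mesenchymal signals overlapped between replicates 1 and 2 at 6 h (12.61 to 12.77), with 12.54 to 12.62 in replicate 3, and were 13.03 to 13.12 over all replicates at 24 h. No Schwann cell marker was called by this limma test, of 1 tested probe set (adjusted p of 0.786 at 6 h and 0.324 at 24 h). The part of CYP26A1 or of these markers in the member values was not tested.

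**Figure D5:**
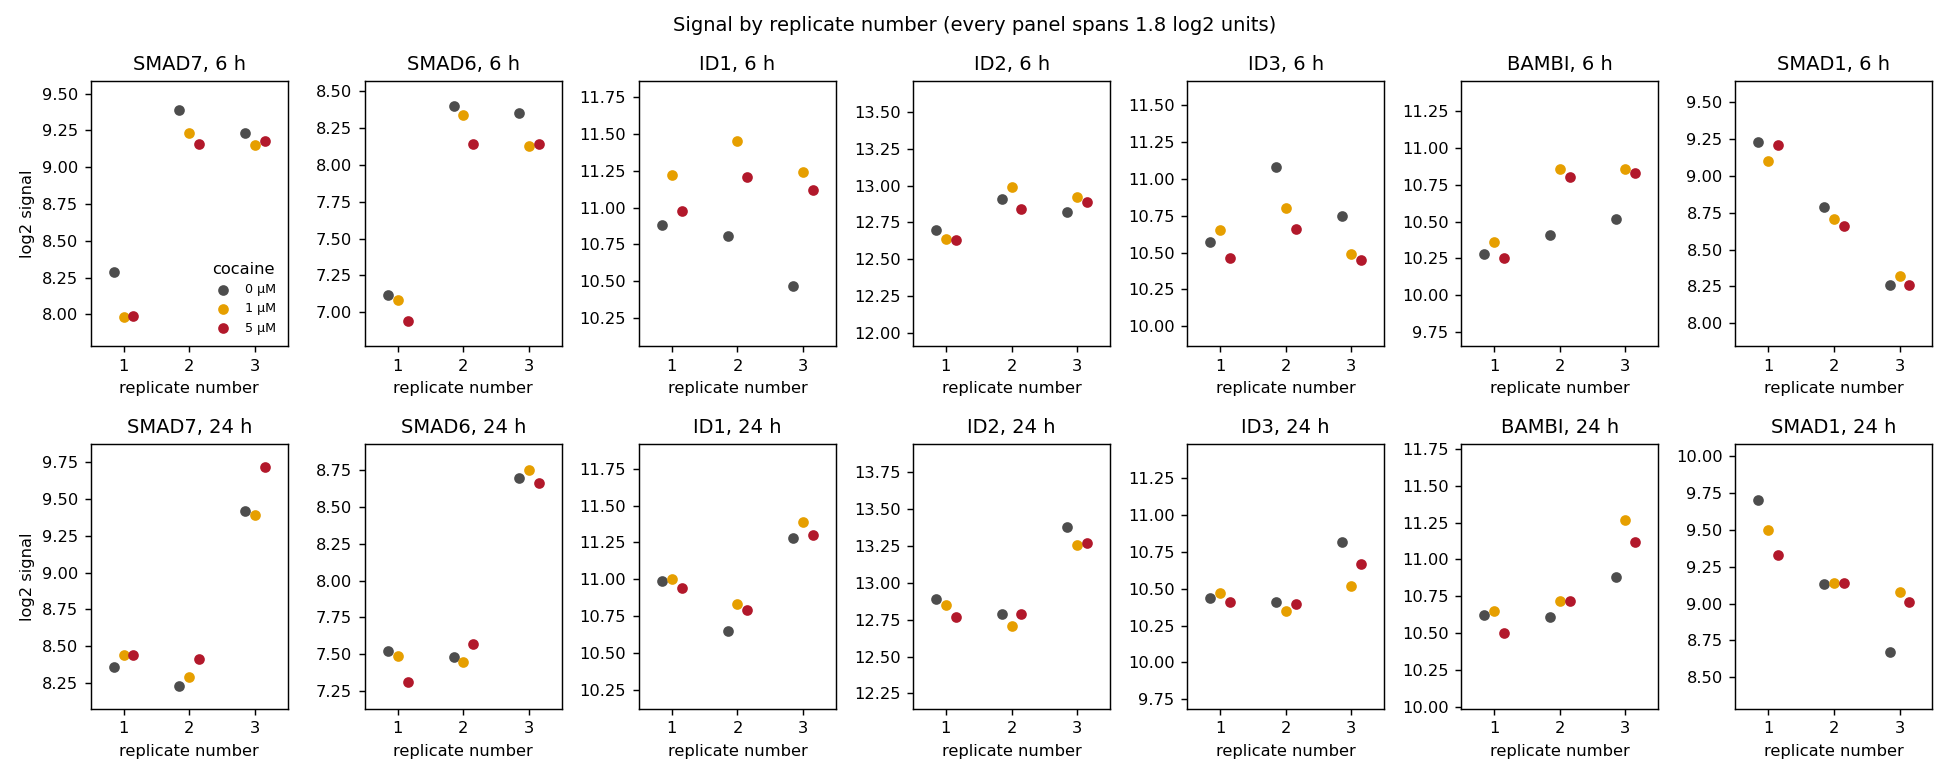
Log2 signal of SMAD7, SMAD6, ID1, ID2 (201565_s_at), ID3, BAMBI and SMAD1 (227798_at) by replicate number at 6 h (top) and 24 h (bottom), with 1 point per array coloured by cocaine dose. SMAD7 and SMAD6 are lowest in replicate 1 at 6 h and highest in replicate 3 at 24 h at each of the doses, and SMAD1 falls on the other side, with means of 9.18, 8.72 and 8.28 at 6 h.

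The rest of the pathway was covered by 84 genes, 82 of them in the annotation, of which 58 were tested at 6 h with 139 probe sets and 65 at 24 h with 149. At 5 μM and 6 h 5 probe sets rose and 2 fell, which is 5.04% of the probe sets against 2.98% of all. With the replicate block 30 of the 139 probe sets were called, against 18.6% of all. They lay in 27 genes, 14 with a higher and 15 with a lower probe set, of which 2 (ACVR2B and TCF3) had both. None was called at 1 μM and 6 h without the block. With it 16 of the 139 probe sets, in 14 genes, were called, against 12.5% of all. None was called in the other comparisons. By list, the ligands had 0 of 6 tested genes higher and 1 lower, the antagonists 0 of 7 in either direction, the other receptors 1 of 10 higher, the other SMADs 1 of 4 higher, the regulators and cofactors 2 of 24 higher and 1 lower, and the other targets with the ID partners 1 of 7 higher.

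The rises were in ACVR2B, a type II receptor of activins and BMPs, by 0.50 (1559548_at, SE 0.0775, adjusted p = 0.0432, limma), in YY1, a repressor of SMAD activity, by 0.50 (213494_s_at, SE 0.0579, adjusted p = 0.0211), and in ZEB1, a zinc finger factor that binds SMADs, by 0.49 (212758_s_at, SE 0.0932, adjusted p = 0.061). SMAD2, which serves TGF-β and activin, rose by 0.43 (235598_at, SE 0.0729, adjusted p = 0.0529), and TCF4, an E protein that IDs bind, by 0.43 (212382_at, SE 0.0876, adjusted p = 0.072). The YY1 probe set read 5.82, 5.82 and 5.83 without cocaine, 6.14, 6.09 and 6.05 at 1 μM, and 6.28, 6.25 and 6.42 at 5 μM, with no overlap between doses. As in BMPR2 and SMAD5, the strongest probe set of each of these 5 genes was not called. It differed by -0.17 for ACVR2B, -0.05 for YY1, -0.07 for ZEB1, 0.02 for SMAD2 and 0.11 for TCF4. The falls were in RNF11, a partner of the SMURF ubiquitin ligases, by 0.33 (208924_at, SE 0.0629, adjusted p = 0.061), and GDF2, the ligand BMP9, by 0.53 (221136_at, SE 0.0859, adjusted p = 0.047). GDF2 read 6.74, 6.83 and 6.88 without cocaine, 6.27, 6.49 and 6.52 at 1 μM, and 6.24, 6.41 and 6.20 at 5 μM, and all treated arrays were below the untreated ones. Leaving out 0 μM replicate 2, 0 μM replicate 3 or 5 μM replicate 1 left 1 of the 7 calls in each case, leaving out 5 μM replicate 2 or 3 left 0, and leaving out 0 μM replicate 1 gave 21. For these fits too the calls over all probe sets are not given here. At 24 h the same probe sets differed by -0.25 (TCF4), -0.18 (YY1), -0.14 (ZEB1), -0.07 (RNF11), -0.04 (GDF2), -0.03 (ACVR2B) and 0.11 (SMAD2), with adjusted p of 0.609 to 0.985.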

How the data were processed

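RNA of 18 pools of cultures was hybridised to the Affymetrix Human Genome U133 Plus 2.0 array. The deposited values are log2 signals, which the authors obtained by RMA (background correction, normalization, median polish), with the 6 h and the 24 h arrays run apart, and array medians were 4.97 to 4.99 on average at 6 h and 5.31 to 5.33 at 24 h. The submitters' processing notes name RMA and limma, with versions not given in the sources used here. Groups and replicate numbers came from the sample titles. Some label text of the 5 μM samples calls them untreated controls as well, and the dose was followed.

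The members and the lists of other pathway genes, markers and named genes were chosen with earlier results of these data known. Gene names came from the platform annotation, in which 41097 probe sets have 1 symbol (41043 matched to RefSeq), 1801 several and 11777 none. Control probe sets, probe sets without a symbol and those with a mean over the 9 arrays of a time at or under log2(40) were left out. Doses were compared within each time with limma 3.58.1 in R 4.3.3 (lmFit, eBayes, 9 arrays, dose means), with Benjamini-Hochberg adjustment over all probe sets kept and a threshold of 0.10. For dose differences of members at 6 h no p-value is printed and calls are given as counts only, since the comparison of 5 and 0 μM chose them and the others share its arrays. Single values were compared with 2-sided exact permutation tests, whose smallest p is 0.1 with 3 against 3 arrays. The scripts were tested on simulated data. Alternatives were a replicate block, other signal filters, median centring, quantile normalization, an intensity trend, fits of the compared arrays alone, a stricter threshold, and leaving out arrays. The number of arrays limits the precision, and p-values measure only the spread between these pools of 1 cell line.

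Replicate numbers are shared by the doses. Deviations from the dose means correlated, for the 9 pairs of arrays with 1 number, at 0.377 to 0.768 (6 h) and 0.424 to 0.733 (24 h). For the 18 pairs with different numbers the correlations were -0.632 to 0.0711 (6 h) and -0.575 to 0.165 (24 h). By this the numbers pair the arrays, from the values and not from the labels. The fits reported have no block unless the text says so, and blocked counts stand beside them. The test of the replicate number and its alternatives were added after the values had been seen. Named genes were every member, up to 4 called genes of each pathway list per direction, comparison and time, CYP26A1, CYP26B1, DHRS3 and RARB, and the genes most like 4 members. SMAD6, BAMBI, MSX2, HEY1, ID4, TCF3, SNAI2 and COL1A1 were named after their values were seen. Promoter sequences are those of the RefSeq table on GRCh38.p14. Figures were drawn with matplotlib.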

Additional observations from a re-analysis of the deposited data

Results flagged for a closer look

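SMAD5 and TCF4 had probe sets whose difference between doses went one way at 6 h and the other way at 24 h on every array, and these differences between times were not tested. For SMAD5 205187_at between 5 and 0 μM the change was 0.63 at 6 h and -0.57 at 24 h, a gap of 1.20, and between 1 and 0 μM it was 0.38 and -0.22, a gap of 0.60. For SMAD5 205188_s_at the gap was 1.34 between 5 and 0 μM (0.82 and -0.52) and 0.71 between 5 and 1 μM (0.34 and -0.37). For TCF4 212382_at, the E protein, the gap between 5 and 0 μM was 0.68 (0.43 and -0.25). The ACTB 3′ minus 5′ difference between 5 and 0 μM was -0.34 at 6 h and 0.30 at 24 h, and its part in these gaps was not tested. That of GAPDH was -0.02 at 6 h and 0.02 at 24 h.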

How the results depend on the processing

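At 24 h no member and no pathway probe set was called under any alternative run. At 6 h between 5 and 0 μM the 4 member calls became 9 with the replicate block. Over all 22455 probe sets 1740 were then called higher and 2444 lower, from 352 and 318 without it. The member calls became 0 with only the 6 arrays compared (93 higher and 38 lower over all probe sets). They became 0 at an adjusted p under 0.05 as well (66 and 38 over all), and ranged from 0 to 7 when single arrays were left out. The 7 pathway calls became 30 with the replicate block and 3 at an adjusted p under 0.05, and ranged from 0 to 21 without single arrays. With a mean signal above log2(100) they became 3, and 217 of all 16523 probe sets were called higher and 265 lower. Between 1 and 0 μM the 0 calls became 6 members and 16 pathway probe sets with the replicate block, against 12.5% of all. When single arrays were left out these calls ranged from 0 to 4 and 0 to 13, the highest without 0 μM replicate 1. Calls over all probe sets are not given here for the fits without single arrays. The replicate block changed no other call count. Centring the arrays on their medians moved the calls over all probe sets at 5 μM and 6 h from 352 higher and 318 lower to 390 and 206, and left the 4 members higher. Calls for the replicate number ranged from 6 to 13 members at 6 h and from 8 to 13 at 24 h over all alternatives. In the main fits 27% of all probe sets at 6 h and 25.2% at 24 h were called for it. For the alternatives the calls over all probe sets are not given here, so these ranges do not single out the members. Against the mean of the other probe sets of the gene rather than the strongest one, the difference at 24 h between 5 and 0 μM was -0.14 for BMPR2 210214_s_at, 0.05 for BMPR2 231873_at, 0.31 for SMAD5 225223_at and 0.35 for SMAD5 235451_at. It was -0.48 and -0.42 for SMAD5 205187_at and 205188_s_at. At 24 h a single probe set difference between doses counted as reversed only where its sign changed and it had exceeded its standard error. By this rule 1013 kept their side of the threshold without reversing, and smaller differences among them may have changed sign. The 1 that reversed was BMPR2 225144_at between 1 and 0 μM. It ranged from -0.00 without 0 μM replicate 1 to 0.21 without 0 μM replicate 3. At 6 h 1052 moved by less than the spread between replicates and 22 by more. The cause of these changes was not tested. With 3 arrays per group, small differences could not be told from the spread.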

Other observations

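By the signal over the 9 arrays of each time, the genes most like ID1 (smaller of the 2 Pearson correlations, given with no test) were LINC02762 (0.886), JUN (0.861), ID2-AS1 (0.858), CCEPR (0.833) and GPANK1 (0.83). For ID3 they were PTGIS (0.892), CRABP2 (0.857), UQCRB (0.855), CASTOR3P (0.848) and ALKBH7 (0.846), where CRABP2 carries retinoic acid to its receptors in the nucleus. For the strongest BMPR2 probe set they were SON (0.866), FEM1B (0.844), PCDH9 (0.832), FAM120C (0.826) and FRY (0.823). For the strongest SMAD5 probe set at 6 h they were STYX (0.738), MED12 (0.718), CTNS (0.704), LUZP1 (0.694) and KPNA4 (0.687), all lower than for the other 3 genes. The arrays share their replicate numbers and normalization, and genes were picked from all tested ones for these values.

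Retinoic acid response genes beside CYP26A1 were high on the same 2 untreated arrays at 6 h, replicates 2 and 3. CYP26B1 read 8.48, 12.33 and 12.18 without cocaine and 8.41 to 8.60 at 5 μM, DHRS3 read 6.81, 10.78 and 10.66 against 6.78 to 7.19, and RARB read 8.41, 9.83 and 9.89 against 7.96 to 8.32. The means rest on those 2 arrays. Between 5 and 0 μM CYP26B1, which also degrades retinoic acid, differed by -2.49, DHRS3, a retinaldehyde reductase, by -2.46 (both exact permutation p = 0.3), and RARB, a retinoic acid receptor, by -1.27 (exact permutation p = 0.1).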
